A study of Panax ginseng with 12 samples.

Results

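The nuclear envelope is crossed by pore complexes, and the transcripts described here encode the machinery that moves RNA and protein through them in Panax ginseng embryogenic calli: THO complex subunits, nuclear pore proteins (nucleoporins), importins, transportins and exportins. Members were the rows of the deposited TPM table whose Swiss-Prot description contains THO complex, nuclear pore, importin, exportin or transportin, in upper or lower case. These words matched 255 rows, but 105 of them did so only because "transportin" is contained in "transporting", and their descriptions are those of ion and lipid pumps. Those pump rows were set apart by name, which left 150 members of 44953 rows. By role, 15 rows fell to the THO complex, 53 to the nuclear pore, 21 to importin alpha, 40 to importin beta, other importins and transportins, and 21 to exportins.

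The calli, cell masses in culture from which somatic embryos can arise, spent 2, 4 or 6 days at 5 °C (cold) or 20 °C (control), and RNA was sequenced from 2 libraries for each temperature and day, 12 in all. No genotype, strain, transgene or added agent is given in the labels, and every group is labelled as embryogenic callus of the same species. Nothing in the labels says that libraries of a group came from separate cultures. If they did not, that spread is technical, and so is the error behind each p-value.

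In plants and other eukaryotes, the THO complex binds messenger RNA while it is transcribed and, with ALY adaptor proteins, hands it to export factors at the pore. The pore itself is a ring of nucleoporins: scaffold rings, membrane anchors, a channel lined by phenylalanine-glycine repeats, a nuclear basket and cytoplasmic filaments. Importin alpha recognises proteins with a nuclear localisation signal and is carried inward by importin beta, while exportins carry proteins or RNA outward, and the small GTPase Ran sets the direction of both.

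The 150 rows carry 52 protein names, 134 of them with an Arabidopsis thaliana protein as best hit. Of these names 16 belong to 1 row and 36 to 2 or more, so rows sharing a name may be copies of a gene, related genes or fragments of 1 transcript. Row lengths ran from 216 to 5417 bases, with a median of 1285.5 bases, against 757 bases over all tested genes. All 150 passed the filter of at least 1 TPM in at least 2 libraries, 145 reached 1 TPM in every library, and 1 was listed at 0 in a library. The median member had a mean level of 15.8 TPM (range 2.86 to 167 TPM), against 7.49 TPM over all tested genes.

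Deposited TPM summed to between 873298 and 929555 per library, and read depth is unknown because no counts are held. A pair of cold libraries stood apart. On the first principal component of all tested genes, cold day 6 replicate 3 lay at -15.4, while the other cold libraries lay at -136.2 to -69.7 and the controls at 52.1 to 110.6. On the second component, cold day 2 replicate 3 lay at 138.2, beyond every other library. The label of the tissue was checked against 10 rows of embryogenic callus markers, among them somatic embryogenesis receptor kinases and WUSCHEL-related homeobox genes, of which 1 (a SERK2 row) was higher and 1 (a SERK1 row) lower in cold, and whose summed level was 438.58 to 672.87 TPM in cold and 444.7 to 983.17 TPM in control libraries. No row matched the words BABY BOOM, AINTEGUMENTA-like, LEC1, LEC2, FUSCA3, ABSCISIC ACID-INSENSITIVE 3 or AGL15. The symbols BBM, AIL and ABI3 were not searched, so rows named only by them would have been missed. Of 12 photosynthetic leaf rows, 2 were higher and 1 lower in cold (summed level 65.7 to 90.21 TPM in cold and 36.72 to 73.4 TPM in control libraries). Of 5 xylem rows, 1 was higher and 2 were lower (52.94 to 98.31 TPM in cold and 60.92 to 106.47 TPM in control libraries), and neither of the 2 seed storage rows was called (47.75 to 100.78 TPM in cold and 46.5 to 214.68 TPM in control libraries). The part of these markers in the results below was not tested.

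In cold calli, all but 3 of the transport rows that were called were lower than in controls. A fit of log2(TPM + 1) over all 12 libraries with limma, adjusted over all 44600 tested genes by Benjamini-Hochberg at 0.05, called 43 of the 150 members lower and 3 higher for the mean of the 3 daily differences, and 104 were not called. Of all tested genes, 12% were called lower, 11.3% higher and 23.3% in either direction. Among 59 members under 1000 bases 23 were lower, and among 91 of 1000 bases or more 20 were. All tested genes were not split by length. Calls of rows in the same assembly cluster may not be independent, and 67 members lie in 25 clusters that hold 2 or more. The median member difference, cold minus control, was -0.37 on the log2(TPM + 1) scale, against -0.05 over all tested genes and -0.08 over tested genes with a Swiss-Prot hit, of which 13.9% were called lower. The difference was negative in 116 members (77.3%), against 52.5% of all tested genes. In bulk RNA, fewer cells of a type and less of the RNA per cell cannot be told apart.

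All 6 cold libraries lay below all 6 controls in 22 members, and above them in none, against 3.84% and 3.27% of all tested genes (7.11% either way). Averaged over the 150 members, log2(TPM + 1) was 3.77 to 4.01 in the cold libraries and 4.04 to 4.33 in the controls, without overlap. Over all tested genes the same average was 3.03 to 3.35 in cold and 2.99 to 3.21 in control libraries, which overlap. Of the importin alpha rows 8 of 21 were lower and none higher; the counts were 13 lower and 1 higher of 40 for importin beta and transportins, 7 lower and none higher of 21 for exportins, 13 lower and 1 higher of 53 for the pore, and 2 lower and 1 higher of 15 for the THO complex. The median differences of these classes, in the same order, were -0.53, -0.39, -0.39, -0.33 and -0.30 (log2). Over all tested genes 12% were called lower and 11.3% higher, with a median of -0.05. Whether the classes differ from each other was not tested.

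**Figure D1:**
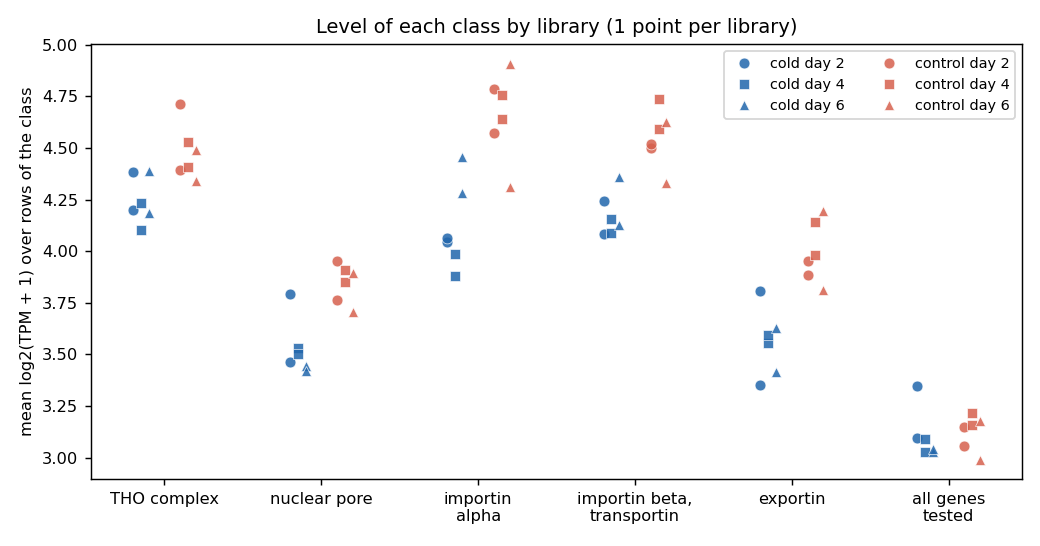
Mean log2(TPM + 1) over the rows of each class (y axis) in each of 12 libraries (points), cold in blue left of control in red, with a symbol for each day; all tested genes are at the right. Exportin rows averaged 3.35 to 3.81 in cold and 3.81 to 4.19 in control libraries, and importin beta and transportin rows 4.08 to 4.36 in cold and 4.33 to 4.74 in control libraries.

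With a 2-fold difference required as well, 9 members were lower and none higher, against 6.91% and 7.36% of all tested genes, so at that size the members were not lower more often than other genes. The count of lower members also moved with single libraries. It was 24 of 150 when cold day 4 replicate 2 was left out, 28 when cold day 6 replicate 2 was, and 28 when control day 4 replicate 2 was; in those fits 6.59%, 6.26% and 7.36% of all tested genes were called lower. Without the cold pair that stood apart, 31 members were lower and none higher (10.1% and 8.69% of all tested genes). In that fit the cold groups of days 2 and 6 have a lone library each, assumed to vary like the other groups.

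Summing the TPM of rows that share a Swiss-Prot hit gave 54 proteins (a name found in several species counts for each), of which 12 were lower in cold and none higher. Over all 35211 summed hits and unnamed rows, 11.1% were lower and 11.2% higher. The 12 were exportin-2, exportin 1B, 4 importins alpha, importin beta-1, a transportin-1, an importin beta-like SAD2 homolog, NUP93A, NUP93B and GP210. Of these, 8 were called with any single library left out; the exceptions were importin alpha-2, an importin alpha named from tomato, the SAD2 homolog and GP210. These summed proteins, and some rows below, were singled out after their values were seen.

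**Figure D2:**
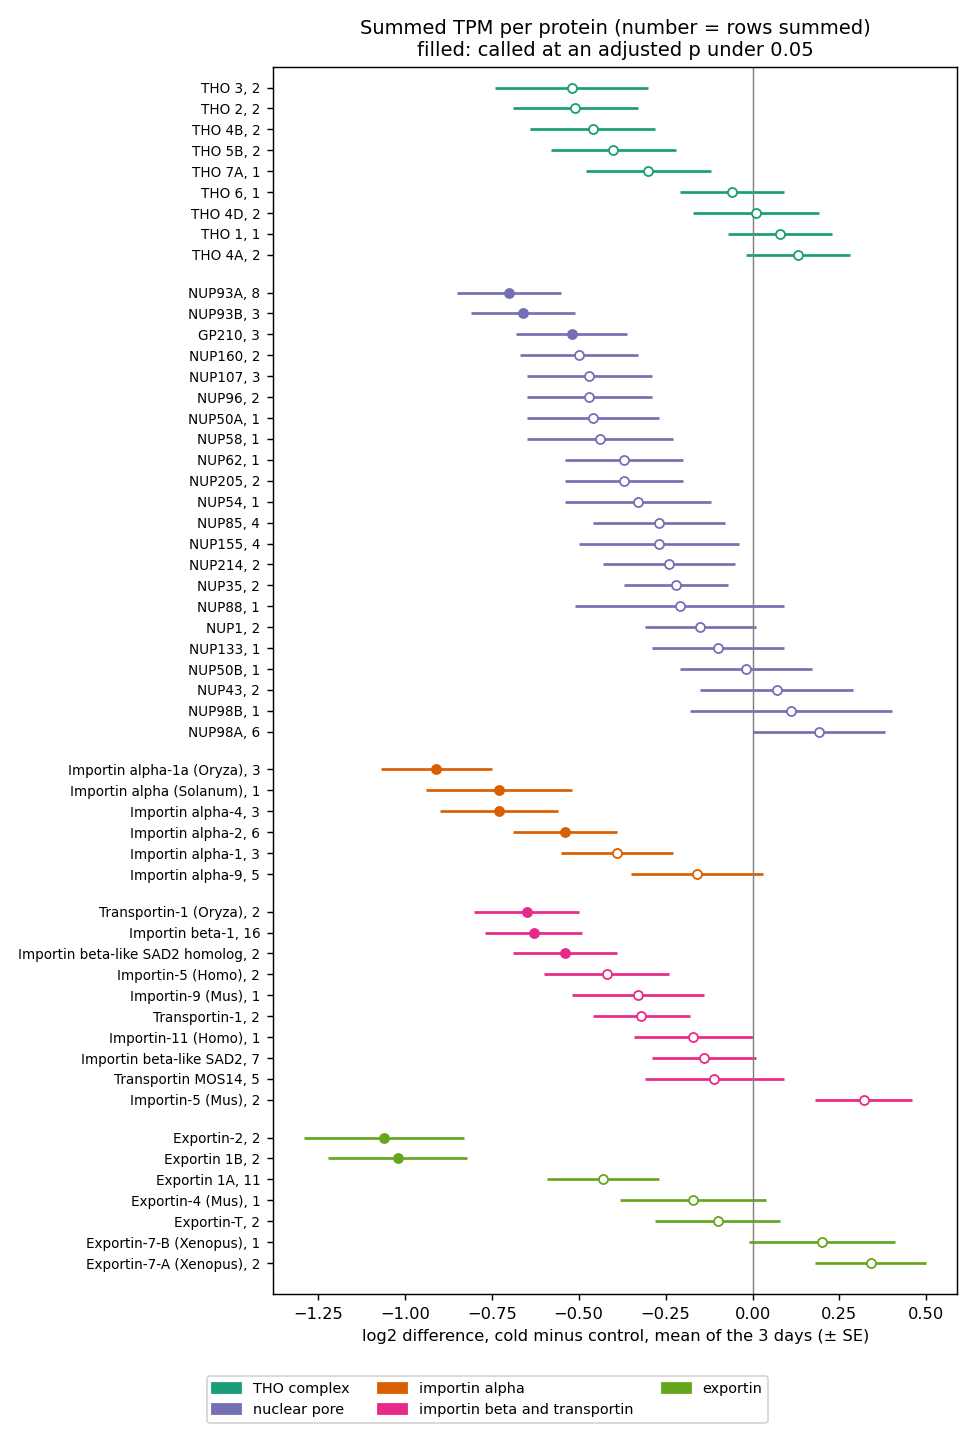
Log2 difference, cold minus control, in summed TPM for each of 54 proteins (points, mean of the 3 days; bars, standard error), grouped by class, with the number of rows summed after each name and filled points for an adjusted p under 0.05 (limma). The 12 filled points are all left of 0 and run from -1.06 for exportin-2 to -0.52 for GP210; no THO subunit is filled.

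Of the THO complex rows, 12 of 15 were not called and the 3 that were called went both ways; 13.3% were lower and 6.67% higher, against 12% and 11.3% of all tested genes, so the lower share was near that of all genes. The most abundant, an ALY1 row for THO subunit 4A (DN17897_c0_g1; the identifiers begin with TRINITY_, left out here), an adaptor that links messenger RNA to export factors, had 158, 185, 189, 179, 171 and 143 TPM in cold libraries of days 2, 2, 4, 4, 6 and 6, against 193, 170, 129, 141, 134 and 212 TPM in controls in the same order of days. The groups overlap, with a difference of 0.09 (SE 0.17; limma adjusted p = 0.747). A less abundant ALY1 row (DN32489_c0_g1) was higher, at 7.05, 11.2, 18.3, 25.02, 16.7 and 10.9 TPM in cold and 8.35, 7.82, 8.34, 8.65, 11.2 and 7.06 TPM in control libraries. Its day 4 cold libraries were the highest and its groups overlap, with a rise of 0.64 (SE 0.21; limma adjusted p = 0.0454). That call held in 3 of the 12 fits that left out 1 library, those without cold day 2 replicate 1, cold day 6 replicate 3 or control day 6 replicate 2, and its adjusted p reached 0.129 without cold day 4 replicate 2.

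An ALY2 row for subunit 4B (DN31237_c0_g1), a related adaptor, had 11, 12.1, 5.4, 5.01, 4 and 7.31 TPM in cold libraries, against 12.8, 13.4, 14.7, 11.5, 13.1 and 9.89 TPM in controls. Its day 2 cold libraries lay within the control range and its day 4 and day 6 cold libraries below them all. The row was lower by a log2 difference of -0.76 (SE 0.20; limma adjusted p = 0.0185), a call lost without cold day 4 replicate 2 or without cold day 6 replicate 2 (adjusted p = 0.0543 without the second of these). The other ALY2 row had a difference of 0.22, and the sum of the 2 rows was not called (-0.46, SE 0.18, limma adjusted p = 0.0858). A THO3 row (DN34984_c1_g3), for a core subunit, had 25.4, 25.03, 25.7, 20.7, 24.2 and 28.1 TPM in cold and 30.0, 46.3, 39.0, 32.2, 36.2 and 32.2 TPM in control libraries. No cold library reached the lowest control. After median ratio scaling the row was not called (limma adjusted p = 0.0784), and after quantile normalization it was (0.0438). It was lower by -0.51 (SE 0.16; limma adjusted p = 0.0464), but the call held in 1 of 12 fits without 1 library, the one without control day 2 replicate 1, and the adjusted p reached 0.123 without cold day 4 replicate 2.

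No other THO row was called. The most abundant row of THO2, the largest core subunit, averaged 24.9 ± 4.99 TPM in cold and 34.3 ± 5.68 TPM in control libraries (SD, n = 6 each; log2 difference -0.45, limma adjusted p = 0.0845). THO5B averaged 12.9 ± 5.08 TPM in cold and 17.9 ± 2.93 TPM in controls (-0.51, limma adjusted p = 0.0746). THO1, a core subunit, averaged 22.9 ± 4.14 TPM in cold and 21.6 ± 2.81 TPM in controls, and THO6 25.3 ± 3.01 TPM in cold and 26.6 ± 4.37 TPM in controls. For these last subunits the differences, 0.08 and -0.06 on the log2 scale, are below their standard errors of 0.15. THO7A had 18.7 ± 3.06 TPM in cold and 23.6 ± 6.18 TPM in control libraries, and ALY4, subunit 4D, 45.8 ± 2.75 TPM in cold and 43.4 ± 12.7 TPM in controls. A second THO3 row (DN21958_c1_g1) ranged from 25 to 52.2 TPM in cold and, with 1 high library at day 2, from 28.0 to 111.6 TPM in control libraries.

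Nucleoporin rows were lower in 13 cases (24.5%) and higher in 1 (1.89%) of 53, against 12% and 11.3% of all tested genes. Of the 13, 7 belong to NUP93, which joins the inner ring of the pore scaffold. Summed over 8 rows, NUP93A had 53.8, 74.3, 59.4, 48.6, 53.9 and 44.8 TPM in cold libraries of days 2, 2, 4, 4, 6 and 6, against 87.6, 101, 85.3, 83.0, 83.9 and 102 TPM in controls. Every cold sum was below every control sum, with a log2 difference of -0.70 (SE 0.15; limma adjusted p = 0.00894). Of its rows 5 of 8 were called lower and all 8 had negative differences on all 3 days. NUP93B, summed over 3 rows, averaged 25.6 ± 5.37 TPM in cold and 41.0 ± 8.19 TPM in control libraries (SD, n = 6 each) and was lower by -0.66 (SE 0.15; limma adjusted p = 0.0108). Both sums were called whichever library was left out, with adjusted p of at most 0.0343 for NUP93A and 0.0376 for NUP93B.

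Among called single pore rows the largest fall was in GP210 (DN22101_c3_g3), named for the membrane protein that anchors the pore in the envelope. It had 1.5, 3.37, 0.71, 0.74, 3.47 and 3.62 TPM in cold libraries and 10.9, 6.94, 12.8, 7.74, 4.00 and 7.30 TPM in controls. The day 4 cold libraries were the lowest, and no cold library reached a control. It was lower by -1.58 (SE 0.27; limma adjusted p = 0.00327), and GP210 summed over its 3 rows by -0.52 (adjusted p = 0.0421). The sum lost its call in 11 of the 12 fits without 1 library, all but the one without control day 6 replicate 2, with adjusted p up to 0.102 without control day 4 replicate 1.

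NUP96, a part of the outer ring (the Y complex), had a row (DN34686_c0_g5) with 3.53, 7.27, 3.18, 2.72, 4.73 and 7.41 TPM in cold and 10.9, 10.8, 9.33, 10.4, 8.07 and 9.42 TPM in control libraries. Again the day 4 cold libraries were lowest and the groups did not overlap (log2 difference -0.97, SE 0.22, limma adjusted p = 0.0113). The other NUP96 row had a difference of 0.02, and the sum of the 2 rows was not called (-0.47, SE 0.18, limma adjusted p = 0.0839). Other outer ring proteins gave 2 lower rows of 3 for NUP107. Their sums over rows were not called: NUP107 averaged 45.8 ± 10.7 TPM in cold and 63.8 ± 12.6 TPM in control libraries (limma adjusted p = 0.0744), and NUP160 13.8 ± 2.79 TPM in cold and 19.8 ± 2.95 TPM in controls (adjusted p = 0.0531). Of the 2 rows of NUP205, an inner ring protein, 1 was lower (-0.71) and the other had a difference of -0.13. The sum of the NUP205 rows was not called (-0.37, SE 0.17, limma adjusted p = 0.124).

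Rows of NUP155, another inner ring protein, moved in opposite directions. One (DN26319_c0_g1) was higher, at 14.8, 18.1, 15.6, 16.5, 8.70 and 7.39 TPM in cold, against 5.36, 7.06, 5.00, 9.27, 8.05 and 10.6 TPM in control libraries. The cold libraries of days 2 and 4 lay above every control, and those of day 6 among them. The rise was 0.74 (SE 0.20; limma adjusted p = 0.0229). It was called in 6 of 12 fits without 1 library and lost without cold day 2 replicate 3, either cold day 4 library, cold day 6 replicate 2, control day 4 replicate 1 or control day 6 replicate 2 (adjusted p up to 0.0652). Its neighbour in the same assembly cluster (DN26319_c0_g2) was lower, at 2.34 to 3.89 TPM in cold and 4.90 to 11.2 TPM in control libraries (-1.07, SE 0.24; limma adjusted p = 0.0112). Summed over its 4 rows, NUP155 had a difference of -0.27 (SE 0.23, limma adjusted p = 0.402), so the sum was called in neither direction.

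Repeat-bearing nucleoporins of the channel and basket were not called. Channel proteins NUP62, NUP58 and NUP54 had differences of -0.37, -0.44 and -0.33, with limma adjusted p of 0.141, 0.152 and 0.257. NUP98A, a mobile nucleoporin, had 6 rows, all with positive differences between 0.01 and 0.44, and summed to 148 ± 34.0 TPM in cold and 128 ± 15.8 TPM in control libraries (SD, n = 6 each; 0.19, SE 0.19, limma adjusted p = 0.487). Its most abundant row (DN33600_c1_g3) had 29.0 to 72.7 TPM in cold, the highest in day 2 replicate 3, and 33.3 to 55.0 TPM in controls, and its difference of 0.08 was -0.13 without that cold library and -0.03 without control day 4 replicate 2. NUP50B of the basket, the most abundant pore row, averaged 47.5 ± 6.20 TPM in cold and 48.9 ± 11.7 TPM in control libraries (-0.02, SE 0.20; limma adjusted p = 0.963). An outer ring NUP85 row (DN35238_c2_g1) ranged from 23.0 to 58.8 TPM in cold and from 34.9 to 83.6 TPM in controls, with both day 4 cold libraries lowest, and was not called (-0.53, limma adjusted p = 0.123).

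Importin alpha, the receptor that reads nuclear localisation signals, was lower in 8 of 21 rows (38.1%) and higher in none. Of all tested genes 12% were lower and 11.3% higher. Summed over 3 rows, the protein named after rice importin alpha-1a had 54.5, 54.6, 64.7, 43.1, 80.4 and 77.8 TPM in cold libraries of days 2, 2, 4, 4, 6 and 6, against 111, 106, 117, 117, 96.8 and 156 TPM in controls. No cold sum reached a control sum, and the difference was -0.91 (SE 0.16; limma adjusted p = 0.00431). The row DN23572_c3_g1 of that protein had 14.1 to 22.4 TPM in cold and 29.7 to 40.6 TPM in control libraries (-0.95, SE 0.16; adjusted p = 0.00336). Importin alpha-4 summed to 74.6 ± 17.3 TPM in cold and 123 ± 16.8 TPM in control libraries (SD, n = 6 each) and was lower by -0.73 (limma adjusted p = 0.012). Its row DN19343_c0_g3 had 43.4, 29.0, 34.2, 25.1, 39.4 and 51.9 TPM in cold and 61.9, 74.1, 72.6, 59.4, 58.3 and 76.3 TPM in control libraries, without overlap. That row, of 563 bases, lies in the same assembly cluster as a more abundant importin alpha-1 row (DN19343_c0_g2, below), which was not called.

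Importin alpha-2 averaged 117 ± 25.8 TPM in cold and 169 ± 20.2 TPM in control libraries (6 rows; -0.54, limma adjusted p = 0.0248), and the tomato-named importin alpha 21.1 ± 6.79 TPM in cold and 35.6 ± 12.1 TPM in controls (1 row; -0.73, adjusted p = 0.0332). These calls were each lost in 8 of 12 fits without 1 library (adjusted p up to 0.0687 and 0.0988). That of importin alpha-2 held without cold day 2 replicate 1, cold day 6 replicate 3, control day 2 replicate 1 or control day 6 replicate 2, and that of the tomato-named protein without cold day 2 replicate 3, cold day 4 replicate 1, control day 2 replicate 3 or control day 6 replicate 2. Both were lost in the fit without the cold pair that stood apart (0.0775 and 0.0828). The row DN24289_c1_g2 of importin alpha-2 had 5.08 to 11.4 TPM in cold and 11.6 to 17.4 TPM in control libraries (-0.84, SE 0.18; limma adjusted p = 0.00828) and was called in every such fit. Importin alpha-1 gave mixed values: its most abundant row (DN19343_c0_g2) had 111 to 210 TPM in cold and 149 to 294 TPM in controls and was not called (-0.36, SE 0.19; adjusted p = 0.179). A short row of 257 bases (DN21886_c1_g1) had 0.90, 2.93, 2.96, 13.0, 2.29 and 3.78 TPM in cold, against 13.1, 14.4, 6.08, 8.96, 17.6 and 10.7 TPM in control libraries, and was lower (-1.499, SE 0.33; limma adjusted p = 0.0105). Only cold day 4 replicate 2 of that row lay within the control range. Importin alpha-9 had 5 rows, none called, and summed to 62.4 ± 8.18 TPM in cold and 71.7 ± 18.2 TPM in controls (adjusted p = 0.559).

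Importin beta-1 (KPNB1), which ferries importin alpha and its cargo through the pore, had the most rows of any member protein, and the most called ones. Of its 16 rows 11 were lower (68.8%) and none higher, against 12% and 11.3% of all tested genes. Rows of a name may be fragments of 1 transcript, so these calls do not count genes. Its 16 rows summed to 266, 265, 269, 264, 271 and 313 TPM in cold libraries of days 2, 2, 4, 4, 6 and 6, against 445, 398, 494, 443, 370 and 404 TPM in controls. The cold sums lay close together below all controls, with a difference of -0.63 (SE 0.14; limma adjusted p = 0.0109), and the call held without any single library (adjusted p at most 0.0379). The row with the lowest adjusted p of all members (DN28649_c0_g3) had 10.5, 12.2, 11.8, 12.1, 13.7 and 18.3 TPM in cold and 32.2, 28.2, 29.9, 30.8, 36.3 and 27.8 TPM in control libraries. Its lowest control was above its highest cold library. It was lower by -1.19 (SE 0.16; limma adjusted p = 0.00138).

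A second KPNB1 row (DN12364_c0_g1) had 4.21 to 8.23 TPM in cold and 10.01 to 16.1 TPM in control libraries (-1.08, SE 0.19; limma adjusted p = 0.00438). Another (DN35617_c1_g2), of 338 bases, had 3.90, 2.87, 1.33, 1.94, 2.18 and 1.99 TPM in cold and 8.70, 17.0, 9.03, 13.3, 2.68 and 3.70 TPM in controls. On day 6 its controls were low too and lay within the range of the cold libraries. It was lower by -1.41 (SE 0.25; limma adjusted p = 0.00391). These KPNB1 rows were called in every fit without 1 library.

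**Figure D3:**
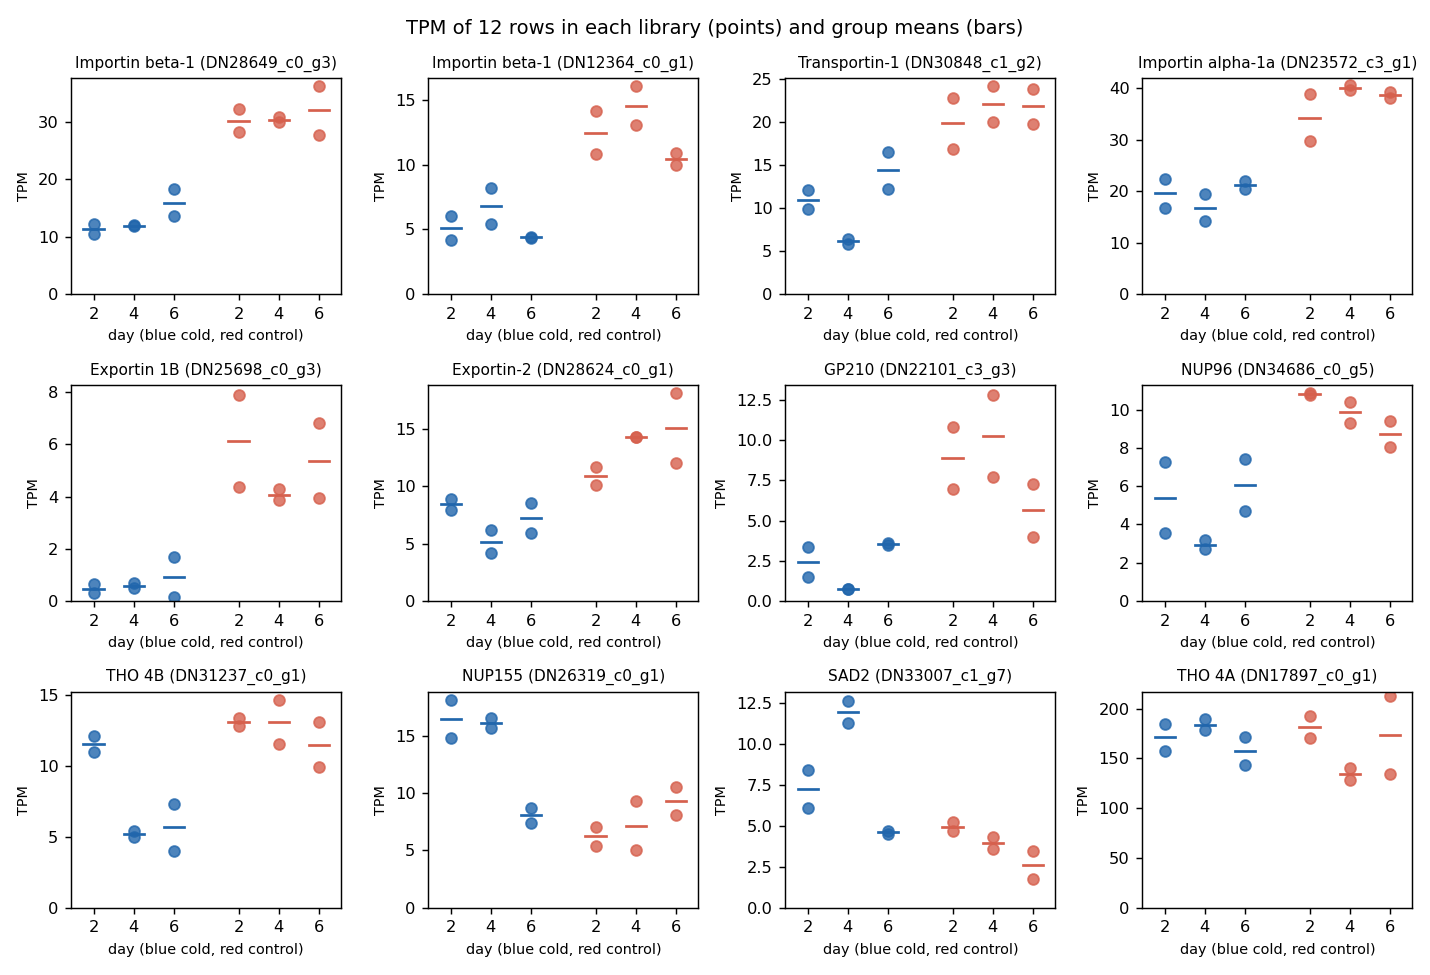
TPM (y axes, from 0) of 12 rows in each library (points) by day, cold in blue left of control in red, with short bars for the mean of the 2 libraries of a group. In the importin beta-1 row DN28649_c0_g3 the cold libraries sit between 10.5 and 18.3 TPM and the controls between 27.8 and 36.3 TPM, while the THO subunit 4A row overlaps.

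Transportins carry other cargo classes, such as RNA-binding proteins, into the nucleus. The protein named after rice transportin-1 summed to 28.1 ± 9.68 TPM in cold and 42.5 ± 5.37 TPM in control libraries (2 rows; SD, n = 6 each) and was lower by -0.65 (SE 0.15; limma adjusted p = 0.0126). Its row DN30848_c1_g2 had 12.1, 9.85, 6.37, 5.84, 12.3 and 16.5 TPM in cold, against 16.9, 22.8, 19.9, 24.1, 23.9 and 19.8 TPM in control libraries. The cold libraries were lowest on day 4 and did not reach a control (-1.02, SE 0.17; limma adjusted p = 0.0033). The Arabidopsis-named transportin-1 (2 rows) had 44.4 ± 13.1 TPM in cold and 53.9 ± 7.82 TPM in controls and was not called for the mean of days (adjusted p = 0.13). MOS14, a transportin for splicing factors in Arabidopsis, had 5 rows, none called, at 86.4 ± 20.8 TPM in cold and 92.8 ± 18.6 TPM in controls (adjusted p = 0.72).

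SAD2, an importin beta-like protein known in Arabidopsis from abscisic acid responses, had 7 rows with 1 called, and that was a rise. The called row (DN33007_c1_g7, 376 bases) had 6.07, 8.39, 11.3, 12.6, 4.71 and 4.53 TPM in cold and 4.68, 5.21, 4.34, 3.58, 1.75 and 3.44 TPM in control libraries. Day 4 cold libraries were highest, and day 6 ones lay within the control range (0.84, SE 0.22; limma adjusted p = 0.0185, but 0.0606 without cold day 4 replicate 2 and 0.0639 without the cold pair that stood apart). The most abundant SAD2 row (DN15870_c0_g1) had 67.1 to 123 TPM in cold and 89.4 to 123 TPM in control libraries, with overlap and no call (-0.33, SE 0.18; limma adjusted p = 0.187). All 7 rows together gave -0.14 (SE 0.15, limma adjusted p = 0.51). The rise of DN33007_c1_g7 was thus not seen in the sum, which was called in neither direction. The SAD2 homolog At3g59020 averaged 45.6 ± 6.44 TPM in cold and 66.7 ± 6.97 TPM in controls and was lower by -0.54 (limma adjusted p = 0.0249). That call was lost without cold day 2 replicate 1, cold day 4 replicate 2, cold day 6 replicate 2, control day 2 replicate 3 or control day 4 replicate 2 (adjusted p up to 0.0742). Importin-5, importin-9 and importin-11 proteins, which carry ribosomal proteins and histones among other cargo in animals, were not called.

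Exportin-2 (CAS), which returns importin alpha to the cytoplasm, was lower in both its rows and had the largest difference of any summed protein. Its sum was 20.5, 46.9, 34.0, 22.2, 30.1 and 47.8 TPM in cold libraries of days 2, 2, 4, 4, 6 and 6, against 52.3, 65.9, 70.2, 63.6, 96.5 and 64.7 TPM in controls. The cold libraries varied more than 2-fold among themselves but none reached a control (-1.06, SE 0.23; limma adjusted p = 0.00985, and at most 0.0369 without any single library). The longer row (DN28624_c0_g1, 3275 bases) had 4.18 to 8.91 TPM in cold and 10.2 to 18.1 TPM in control libraries (-0.88, SE 0.19; limma adjusted p = 0.0102). Most of the sum came from the shorter row, of 520 bases. It averaged 26.6 of 33.6 TPM in cold and 55.4 of 68.9 TPM in controls. That row lies in the same assembly cluster as a row of another protein, the Ran row DN25633_c0_g1. The shorter row (DN25633_c0_g2) had 12.6 to 39.3 TPM in cold and 42.2 to 78.4 TPM in controls (-1.11, SE 0.27; adjusted p = 0.0146), a call lost without cold day 4 replicate 2 or cold day 6 replicate 2 (up to 0.0506).

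Exportin 1, the export receptor for proteins with a leucine-rich nuclear export signal, is named in the files as exportin 1A (XPO1) and exportin 1B (XPO1B). Exportin 1B was lower in both its rows and summed to 9.40 ± 2.30 TPM in cold and 19.7 ± 2.21 TPM in control libraries (SD, n = 6 each; -1.02, SE 0.20, limma adjusted p = 0.00669). The row with the largest fall of all members (DN25698_c0_g3) had 0.30, 0.64, 0.48, 0.69, 0.16 and 1.67 TPM in cold, against 4.37, 7.88, 3.87, 4.27, 3.95 and 6.81 TPM in control libraries. In cold, 5 of its 6 libraries were under 1 TPM, where the pseudocount of 1 makes the fitted difference smaller than the ratio of levels. It was lower by -1.91 (SE 0.32; limma adjusted p = 0.00325).

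Exportin 1A had 11 rows, 3 of them lower (27.3%) and none higher, against 12% and 11.3% of all tested genes. Differences were negative in 10 of its rows. Its sum of 190 ± 27.2 TPM in cold and 255 ± 31.3 TPM in control libraries was not called (-0.43, SE 0.16; limma adjusted p = 0.0699). A row beside the exportin 1B one in its assembly cluster (DN25698_c0_g4) was lower, at 18.9 to 33.2 TPM in cold and 44.3 to 55.0 TPM in controls (-0.89, SE 0.16; limma adjusted p = 0.00454). The most abundant exportin row (DN35773_c2_g1, exportin 1A) had 28.6 to 51.5 TPM in cold and 41.9 to 63.3 TPM in control libraries. It missed the threshold (-0.52, SE 0.18, limma adjusted p = 0.0518). After quantile normalization (limma adjusted p = 0.0412) and median ratio scaling (0.0474) it passed, so its call depends on the scaling. Its difference was -0.60 to -0.44 with single libraries left out. Exportin-T, which exports transfer RNA, exportin-4 and the exportin-7 proteins were not called, with differences between -0.17 and 0.34.

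By day, the median member difference was negative at each time, and calls were concentrated on day 4. The medians were -0.30 on day 2, -0.48 on day 4 and -0.35 on day 6, against 0.00, -0.16 and -0.03 over all tested genes. On day 2, 1 member was called lower and none higher (1.76% of all tested genes were called in either direction, 0.287% lower and 1.48% higher). It was the KPNB1 row DN28649_c0_g3, with a difference of -1.34 (limma adjusted p = 0.0362). Day 4 had 16 lower and 1 higher, with 8.38% of all tested genes called, 4.3% lower and 4.07% higher. On day 6 limma called none (0.484% of all tested genes), with the lowest adjusted p at 0.0616 and 31 members at an unadjusted p under 0.05.

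The 16 day 4 falls were 4 KPNB1 rows, 3 importin alpha-2 rows, 2 rice-named transportin-1 rows and 1 row each of importin alpha-1a, importin alpha-4, an Arabidopsis-named transportin-1, exportin-2, exportin 1A, GP210 and NUP96, and the rise was the SAD2 row DN33007_c1_g7. Among these called rows GP210 had the largest day 4 difference, -2.67 (limma adjusted p = 0.0125), followed by a KPNB1 row at -2.19 (DN35617_c1_g2, adjusted p = 0.0168) and the transportin-1 row DN30848_c1_g2 at -1.69 (adjusted p = 0.0129). The Arabidopsis-named transportin-1 row (DN31507_c0_g4) had 15 and 18.3 TPM in cold, against 49.1 and 36.4 TPM in control libraries on day 4 (-1.30, limma adjusted p = 0.0256), while on days 2 and 6 its cold and control values overlapped. Leaving out any 1 of the 4 day 4 libraries brought the day 4 count of members to 0, in fits where 0.027% to 0.342% of all tested genes were called, so the loss was not particular to the members.

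Differences between days were not called for any member. The test that the 3 daily differences are equal had a lowest adjusted p of 0.351 (limma; 10 members at an unadjusted p under 0.05), with 0.0157% of all tested genes called. Change over days was called in no member in cold (lowest adjusted p = 0.0708, 15 at an unadjusted p under 0.05, 0.601% of all tested genes called) and in none in control (4 at an unadjusted p under 0.05, 0% of all tested genes called). A larger count of calls on day 4 is therefore no test that the days differ. The difference was negative on all 3 days in 84 members (56%), against 28.5% of all tested genes.

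**Figure D4:**
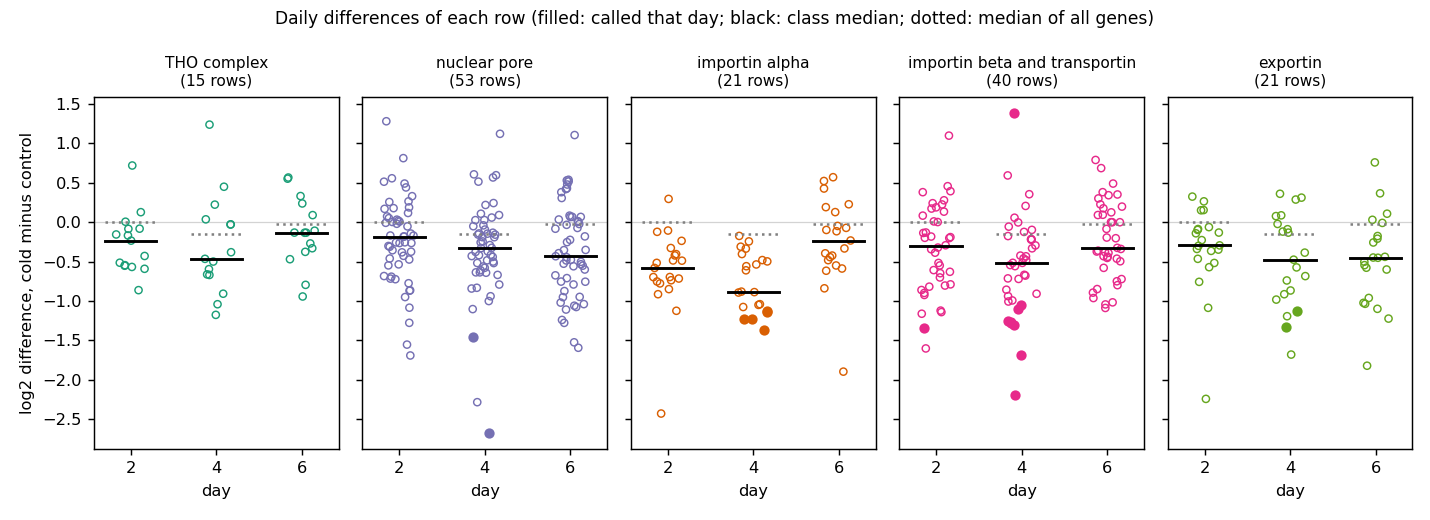
Log2 difference, cold minus control, of each row on days 2, 4 and 6 (points; filled where called that day by limma), with the class median (black) and the median of all tested genes (dotted). Filled points are 1 on day 2, 17 on day 4 and 0 on day 6.

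Other factors of the same route were read from a list of 54 rows that the members' words do not catch: the Ran cycle, cap-binding and further export factors, exon junction proteins and HOS1. Of these 3 were higher (5.56%), 6 lower (11.1%) and 45 not called, with a median difference of -0.15; over all tested genes 11.3% were higher and 12% lower, with a median of -0.05, so the lower share of the list was near that of all genes and the higher share below it. RANGAP2, which makes Ran hydrolyse GTP at the cytoplasmic side of the pore, gave 3 of the falls. Its row DN28278_c0_g2 had 6.59, 5.22, 3.54, 4.47, 2.20 and 1.70 TPM in cold and 11.3, 10.6, 13.0, 8.53, 6.14 and 9.77 TPM in control libraries, with 1 cold library inside the control range (-1.19, SE 0.21; limma adjusted p = 0.00426). A row named after Pym, which binds exon junction proteins in insects, was lower too, at 1.29 to 7.88 TPM in cold and 8.31 to 14.1 TPM in controls (DN15403_c0_g5; -1.18, SE 0.22; adjusted p = 0.00485). A more abundant Pym row of the same assembly cluster (DN15403_c0_g1) averaged 32.2 TPM in cold and 32.8 TPM in controls. That row was not called (-0.02, SE 0.19, limma adjusted p = 0.955).

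SAC3A, a scaffold of messenger RNA export in plants, was higher, at 11.9, 12.9, 36.8, 33.2, 26.8 and 16.6 TPM in cold and 11.7, 15.4, 11.7, 14.8, 10.2 and 10.1 TPM in control libraries (DN33854_c0_g3). Its day 2 cold libraries lay among the controls and its later ones above them (0.74, SE 0.18; limma adjusted p = 0.014). A mago nashi row, for a core exon junction protein, was higher at 3.40 to 9.62 TPM in cold and 2.80 to 3.74 TPM in controls (DN28292_c0_g1; 0.88, SE 0.25; adjusted p = 0.0279). It was called in 6 of 12 fits without 1 library and lost without cold day 2 replicate 3, either cold day 4 library, cold day 6 replicate 2, control day 4 replicate 2 or control day 6 replicate 2 (adjusted p up to 0.0835), and summed by hit its difference was -0.45. The Ran row RAN1 (DN26126_c0_g1) averaged 808 ± 221 TPM in cold and 1400 ± 271 TPM in control libraries (SD, n = 6 each; -0.81, limma adjusted p = 0.0465), a call that held in 2 of 12 fits without 1 library, those without cold day 2 replicate 1 or cold day 6 replicate 3 (up to 0.138 without cold day 6 replicate 2). After median ratio scaling the row DN26126_c0_g1 was not called (limma adjusted p = 0.0855), and after quantile normalization it was (0.0255). Other RAN1 rows were not called (limma adjusted p = 0.0717, 0.397 and 0.557). Summed by hit, RAN1 was lower by -0.71 (limma adjusted p = 0.0288), and that sum was not refitted without single libraries. Ion and lipid pump rows that the word transporting brought in were 22 higher (21%), 5 lower (4.76%) and 78 not called of 105, with a median of 0.24, against 11.3% higher, 12% lower and a median of -0.05 over all tested genes.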

How the data were processed

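RNA of 12 callus libraries was measured in 6 groups of 2, placed from their titles. The authors deposited a table of TPM values per assembled gene with a length and protein annotation (no header names the unit, which the values gave). The authors used cutadapt, FastQC, Salmon and edgeR, per the submitters' processing notes, which give no roles or versions. Rows carry Trinity identifiers, per the file headers; assembly steps were not given in the sources used here. No counts are held, so depth and the precision it gives are unknown, and how reads were divided between rows with the same best Swiss-Prot hit is unknown. Levels are compared per length through TPM.

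Values were taken as log2(TPM + 1), since the plan named this for a normalized unit, and 44600 of 44953 rows, those reaching 1 TPM in 2 or more libraries, were fitted with limma 3.58.1 in R 4.3.3 (with the package data.table, version 1.17.8) as 6 groups, using a variance trend and leaving 6 residual degrees of freedom. Adjusted p-values are Benjamini-Hochberg over all tested genes, with a threshold of 0.05. Figures used matplotlib 3.10.9 in python 3.11.15. The scripts were tested on simulated data. Members and lists were chosen with earlier results of these data known. Pump rows (105) and 8 rows of the wider list (a DNA repair protein, a WRKY factor and phosphatases that its words also catch) were set apart by name.

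Rows to name were, with at least 5 TPM in the higher arm, the 10 largest called rises and falls for the mean of days, up to 3 called rows a day, the most abundant row of each class and THO subunit, and 2 rises and 2 falls of the wider list; rows outside this rule were chosen after their values were seen. Alternatives were a pseudocount of 0.5, no low-value filter or one of 5 TPM, a fold threshold of 2, a block for replicate number, each day alone, sums by Swiss-Prot hit, 2 scalings, no variance trend, and left-out libraries. Pump rows counted in, the longest row per protein, and a crossed day 2 pairing were added after seeing the data.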

Additional observations from a re-analysis of the deposited data

Results flagged for a closer look

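Among 84 sets of 6 libraries (42 named rows in each arm), 2 held a library whose gap to its nearest neighbour was large for the range of the set, and chance flags about 1 in 20 such sets. In the importin alpha-1 row DN19343_c0_g2, control day 6 replicate 3 had 293.9 TPM, while the other 5 controls had 149.3 to 189.47 TPM. In the importin alpha-1a row DN23572_c3_g1, control day 2 replicate 1 had 29.67 TPM, while the other 5 controls had 38.18 to 40.57 TPM, and all 6 cold libraries were lower than it.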

How the results depend on the processing

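Counts of members called for the mean of days (43 lower, 3 higher) moved to 9 and 0 with a 2-fold threshold (all tested genes 6.91% and 7.36%), to 12 and 0 of 54 proteins when summed by hit (11.1% and 11.2%), and to 13 and 1 of 52 when the longest row of each protein name was counted (13.9% and 10.3% of all such rows); with replicate 3 of cold days 2 and 6 left out, 31 were lower and 0 higher. Leaving out each library in turn gave 24 to 41 lower, 0 to 3 higher, 0 to 1 called on day 2 and 0 to 17 on day 4; 23 of the 43 falls and 0 of the 3 rises were called in all 12 such fits. The day 2 count of 1 became 0 with the replicate block (0.924% of all genes called), with the 4 libraries of the day alone and with the crossed pairing (0% each), and summed by hit (1.7%), and 4 with quantile normalization (2.14%). The day 4 count of 17 became 5 with the replicate block (4.94%), 0 with the day alone (1.91%), 5 summed by hit (8.11%), 11 with median ratio scaling (8.93%) and 7 without a variance trend (6.45%). With pump rows counted in, 25 were higher, with 9 called on day 2, 32 on day 4, 5 on day 6, 1 for the difference between days and 4 for change over days in cold. Same-numbered libraries correlated in their deviations at -0.188, 0.007 and -0.012 on days 2, 4 and 6, so the numbers were not taken to pair samples, and the block left the mean counts at 37 lower and 2 higher (9.85% and 9.32% of all genes). Signs reversed for SAD2 DN33007_c1_g7 (-0.142), NUP155 DN26319_c0_g1 (-0.272) and mago nashi DN28292_c0_g1 (-0.451) when summed by hit. None of these sums was called (limma adjusted p = 0.51, 0.402 and 0.166). Among rows not called, NUP50B DN31364_c1_g1 became 0.034 with median ratio scaling, 0.017 without both cold libraries and -0.152 to 0.121 without single ones; NUP98A DN33600_c1_g3 became -0.116 without both cold libraries and -0.134 to 0.297 without single ones, which gave -0.135 to 0.015 for THO6, -0.024 to 0.195 for the abundant ALY1 row and -0.007 to 0.157 for THO1. The median of all tested genes was -0.046 unscaled, -0.003 with median ratio scaling and -0.027 with quantile normalization, against -0.374, -0.325 and -0.357 for members. The cause was not tested in any case.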
